A study of Mus musculus with 93 samples.

Results

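The genes that make, destroy, bind and read retinoic acid were followed in first heart field (FHF) and second heart field (SHF) progenitors of the mouse. The list held 10 genes chosen by symbol, Aldh1a2, Rdh10, Dhrs3, Cyp26a1, Cyp26b1, Rara, Rarb, Rarg, Crabp1 and Crabp2, and all 10 were present among the 24514 gene symbols of the count table. Each library was made from 10 sorted cells in 1 well of a plate. All cells carried the same 3 alleles, Hcn4-GFP, Tbx1-Cre and Ai9. GFP therefore marked cells with an active Hcn4 locus, taken as FHF. RFP from Ai9 was switched on for good in any cell with a history of Tbx1-Cre expression and in its progeny, taken as SHF lineage. Cells came either from embryos, named E8.5 in the sample titles and E7.75 in the protocol, or from spheroids at day 5.5 of culture with Activin A and Bmp4. All spheroids derived from 1 embryonic stem cell (ESC) line with those alleles. There were 5 GFP+ embryo, 4 RFP+ embryo, 38 GFP+ spheroid and 46 RFP+ spheroid libraries, and 1 GFP+ spheroid library with 6288 counts was left out of all values, which left 37. The labels tied no well to an embryo, a litter or a culture, so the p-values below measure the spread between wells, which may be technical.

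Retinoic acid is made from vitamin A in 2 oxidation steps. Rdh10 oxidises retinol to retinaldehyde, Dhrs3 reduces retinaldehyde back to retinol, and Aldh1a2 oxidises retinaldehyde to retinoic acid. The Cyp26 enzymes break retinoic acid down. Crabp1 and Crabp2 are small proteins that bind it in the cytoplasm, and Rara, Rarb and Rarg encode the nuclear receptors that, paired with a retinoid X receptor, bind response elements in target genes. In the mouse embryo, Aldh1a2 in posterior mesoderm and Cyp26a1 at the ends of the axis shape the retinoic acid that sets the posterior limit of the heart field, and Cyp26a1 and Rarb are textbook targets of the signal that they respectively remove and receive.

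Library totals were 712732 to 2525460 counts in GFP+ embryo, 1246546 to 1479957 in RFP+ embryo, 828193 to 4371849 in GFP+ spheroid and 445071 to 5658882 in RFP+ spheroid cells. The GFP+ embryo libraries detected 6189 to 8302 genes, fewer than the 10263 to 13052 of the RFP+ embryo libraries and the 11434 to 14671 of the spheroid libraries. Hcn4 had a mean of 14.1 CPM (counts scaled to a library total of 1e6) in GFP+ and 0.338 in RFP+ embryo cells, and of 7.54 and 0.441 in the respective spheroid cells. The 7 FHF and cardiomyocyte marker genes summed to 15126 to 34604 CPM in GFP+ embryo libraries and to only 3.70 to 586 CPM in GFP+ spheroid libraries, where the cardiac troponin gene Tnnt2 had a median of 3.43 CPM. GFP+ spheroid cells were therefore marked by Hcn4 with few cardiomyocyte transcripts. Tbx1 itself was read in 3 of 4 RFP+ embryo and 41 of 46 RFP+ spheroid libraries and in 2 of 37 GFP+ spheroid libraries, and it was at 0 in the GFP+ embryo libraries. On the plate, RFP+ spheroid cells filled columns 1 to 6 and GFP+ spheroid cells columns 7 to 11, so the position on the plate and the population cannot be told apart. The same holds in the embryo, where GFP+ cells were in rows A to E and RFP+ cells in rows F to H. In addition, 7 pairs of RFP+ spheroid wells in neighbouring columns were more alike (r of log2(CPM + 1) 0.976 to 0.994) than the other 1028 pairs (r up to 0.971). Each still differed by more than sampling noise, with a chi-square per degree of freedom of 1.37 to 2.39. They were kept as separate wells, and the edgeR fits and the correlations were recomputed with each pair summed. The permutation tests printed used the separate wells.

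A direct repeat of 2 retinoic acid receptor half-sites separated by 5 bases is the classical response element. The 250 bases before each RefSeq gene start (GRCm38.p6) were searched on both strands for 2 half-sites in the same orientation with a spacer of 5 bases. A half-site was either AGGTCA itself or one of its variants, for which AGTTCA was allowed, as well as GGGTCA and, as the last form, GGTTCA. Of the 8 members with a window, Cyp26a1 and Rarb held such a repeat, against 29 of 32851 windows (0.0883%) and 28 of 27025 genes (0.104%) in all. None of the 34 other retinoic acid pathway genes with a window held it. With a spacer of 1 or 2 bases, 54 (0.164%) and 57 (0.174%) of all windows held a repeat and no member did, and Bco1 was the pathway gene among them, with a spacer of 1. The Cyp26a1 stretch below (chr19:37697558-37697797, plus strand) ends where the GENCODE transcript begins, and its capitals mark the repeat, which lies on the opposite strand 32 to 16 bases before the RefSeq start. The Rarb stretch (chr14:16575507-16575536, minus strand) shows only the surroundings of the repeat, 53 to 37 bases before a RefSeq start inside the gene. GENCODE places those bases in the 5′ UTR of 2 Rarb transcripts that start farther upstream, and in an intron of 2 longer ones. Both are shown because they held the repeat. Cyp26a1 and Rarb were also among the 3 members with the largest edgeR log2 fold changes between the spheroid populations. Aldh1a2, the other of these 3, and Dhrs3 had windows without the repeat. Both genes were known targets before the search, so their share among the members is no separate support for a link to these differences. The match describes letters only, and occupancy was not measured.
Cyp26a1: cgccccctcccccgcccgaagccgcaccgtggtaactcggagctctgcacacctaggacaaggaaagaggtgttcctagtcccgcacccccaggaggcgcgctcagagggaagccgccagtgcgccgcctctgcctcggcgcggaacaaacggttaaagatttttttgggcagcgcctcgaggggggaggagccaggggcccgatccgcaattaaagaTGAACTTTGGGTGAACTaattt
Rarb: cgggaagGGTTCACCGAAAGTTCActcgca

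**Figure D1:**
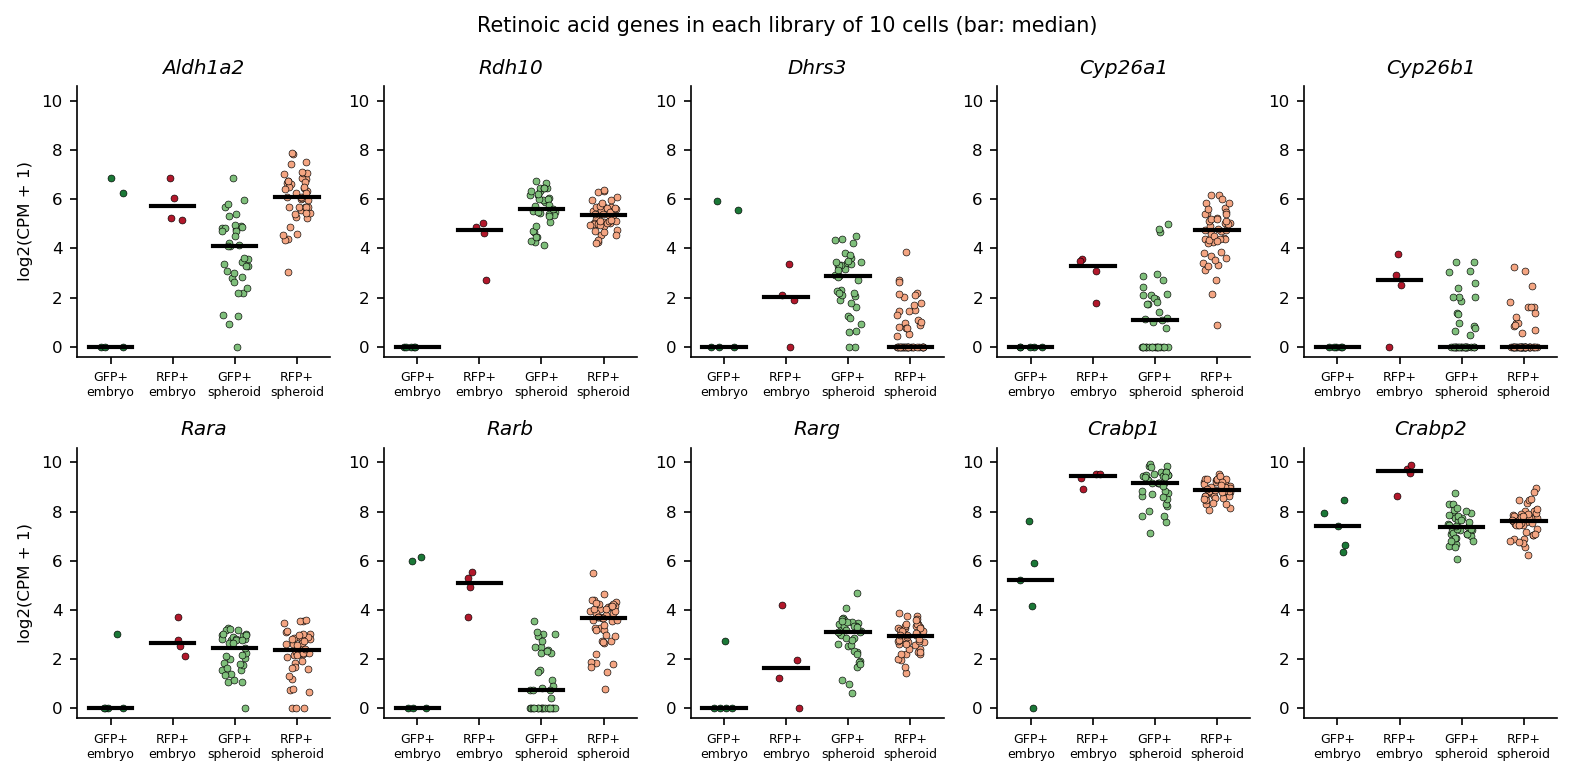
CPM of each of the 10 genes in every library, on a log2(CPM + 1) axis, with 1 point per library and a bar at the group median, for GFP+ embryo (n = 5), RFP+ embryo (n = 4), GFP+ spheroid (n = 37) and RFP+ spheroid (n = 46) cells. Crabp1 and Crabp2 sit highest in all 4 groups, and Rdh10, Cyp26a1 and Cyp26b1 lie at 0 in all 5 GFP+ embryo libraries.

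Among the enzymes of synthesis, Rdh10 (chr1:16105774-16133734, plus strand) separated the embryo populations. No GFP+ embryo library held a Rdh10 read, while the RFP+ embryo libraries F12, G11, G12 and H11 had 32.1, 28.0, 5.62 and 23.6 CPM, named here by their wells. Every RFP+ library was thus above every GFP+ library, with G12 clearly the lowest of the 4. The RFP+ embryo mean was 22.3 ± 11.7 CPM (SD, n = 4), 8.55-fold above the mean floor of 3 counts per library (1.19 to 4.21 CPM in the GFP+ embryo libraries). That floor covers counting error only. The GFP+ embryo libraries detected fewer genes than the others, so a count of 0 there does not bound the level or the fold change. The exact two-sided permutation p on log2(CPM + 1) was 0.00794, the smallest that 126 arrangements of these libraries can give. Rdh10 was too low to enter the model across genes in the embryo. In the spheroids it was read in every library of both populations. GFP+ spheroid libraries ranged from 16.7 to 104 CPM around a median of 48.3, and RFP+ spheroid libraries from 17.8 to 82.7 around 40.2. Rdh10 was lower in RFP+ spheroid cells by a small amount (log2 fold change −0.39, SE 0.13, edgeR quasi-likelihood adjusted p = 0.00530), with wide overlap of the libraries and RFP+ lower in 5 of 8 plate rows.

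Aldh1a2 (chr9:71215789-71296243, plus strand), the enzyme of the last step, was patchy among GFP+ embryo libraries and present in all RFP+ ones. The GFP+ embryo libraries A12, B12, C12, D12 and E12 had 115, 0, 0, 74.5 and 0 CPM, and the RFP+ embryo libraries F12, G11, G12 and H11 had 37.2, 34.8, 116 and 65.5 CPM. The 2 GFP+ libraries with Aldh1a2 reads were as high as the RFP+ libraries, with 113 and 169 reads, and the other 3 had none. The groups overlapped, and the fold change was not distinguishable from 0 (log2 fold change 0.71, 95% interval −3.28 to 4.71, edgeR adjusted p = 0.949). In the spheroids the populations differed. Aldh1a2 ranged from 0 to 117 CPM with a median of 16.0 in GFP+ libraries, where 36 of 37 held a read, and from 7.20 to 233 CPM with a median of 67.5 in RFP+ libraries. It was higher in RFP+ spheroid cells (log2 fold change 1.90, SE 0.25, edgeR adjusted p = 5.22e-11) and in 8 of 8 plate rows, by 1.08 to 2.99 on the log2(CPM + 1) scale. The ranges overlapped. Cells of a bulk well were pooled, so fewer cells with a transcript and less transcript per cell cannot be told apart, here and in every value that follows.

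Dhrs3 (chr4:144892827-144928209, plus strand), which runs the first step backwards, had the opposite order in the spheroids. It was read in 35 of 37 GFP+ spheroid libraries (0 to 21.5 CPM, median 6.34) and in 22 of 46 RFP+ spheroid libraries (0 to 13.7 CPM, median 0). Dhrs3 did not pass the filter on low counts in that comparison, and a permutation test of the mean log2(CPM + 1) gave p = 1e-05, the smallest that 100000 resamples can give, with GFP+ higher in 8 of 8 plate rows by 0.661 to 2.92. DESeq2, which tested it, gave a log2 fold change of −2.58 (adjusted p = 8.51e-10). In the embryo, Dhrs3 had 0, 0, 46.3, 60.0 and 0 CPM in GFP+ libraries A12 to E12 and 9.48, 2.73, 0 and 3.38 CPM in RFP+ libraries F12, G11, G12 and H11. Its 2 highest embryo libraries were GFP+, but 3 other GFP+ libraries had no read, and the exact two-sided permutation p was 0.714.

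**Figure D2:**
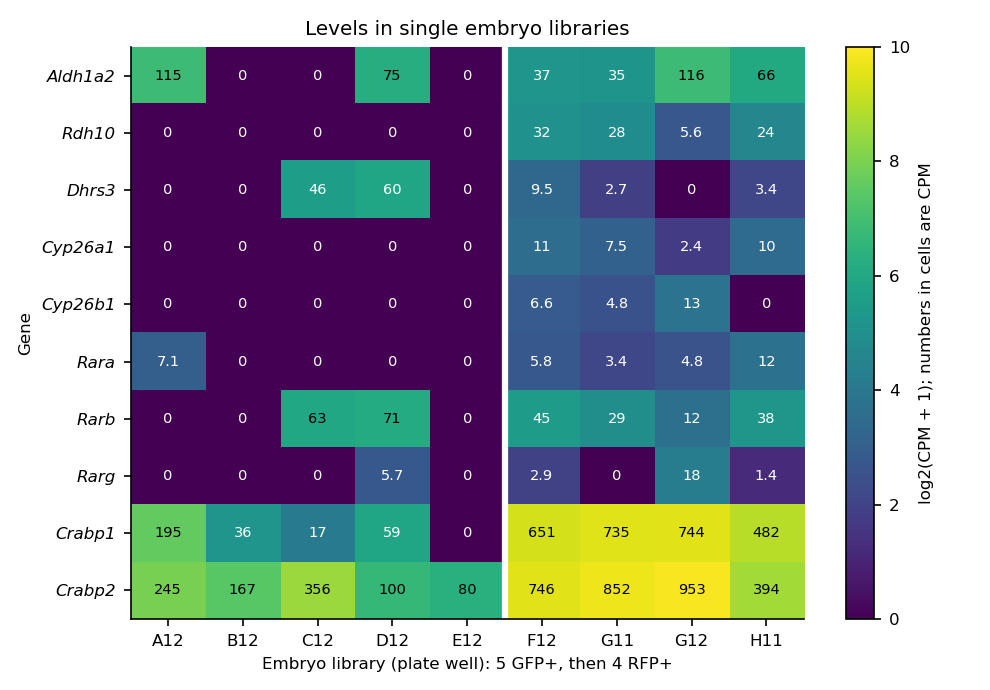
Heat map of the 9 embryo libraries (columns, GFP+ A12 to E12 and RFP+ F12 to H11) by the 10 genes (rows), shaded by log2(CPM + 1) with the CPM written in each cell. C12 and D12 hold the GFP+ reads of Dhrs3 and Rarb, A12 and D12 those of Aldh1a2, and E12 holds reads of Crabp2 alone.

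For breakdown, Cyp26a1 (chr19:37697798-37701536, plus strand) had higher CPM in RFP+ cells of both sources. In the embryo it did not pass the filter on low counts. No read fell on it in any of the 5 GFP+ embryo libraries. RFP+ embryo libraries F12, G11, G12 and H11 had 10.9, 7.51, 2.41 and 10.1 CPM, which is 15, 11, 3 and 15 reads. The groups did not overlap and the RFP+ mean of 7.7 ± 3.9 CPM (SD, n = 4) was 2.97-fold above the floor of 3 counts per GFP+ library (exact two-sided permutation p = 0.00794). The 3 reads of G12 lie at the floor itself. The GFP+ embryo libraries detected fewer genes, so a count of 0 there does not bound the level. Absence in all GFP+ libraries with reads in all RFP+ libraries was found for 4% of the 15111 genes with a read in the embryo. In spheroids, GFP+ libraries ran from 0 to 31.2 CPM with a median of 1.14 and with reads in 21 of 37, and RFP+ libraries from 0.879 to 71.4 CPM with a median of 25.6 and reads in 46 of 46. Cyp26a1 showed the largest spheroid difference of the members tested (log2 fold change 2.86, SE 0.33, edgeR adjusted p = 8.30e-13), and RFP+ was higher in 8 of 8 plate rows by 2.15 to 4.67.

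Cyp26b1 (chr6:84571414-84593908, minus strand) was close to the detection limit. It had 6.57, 4.78, 12.8 and 0 CPM in RFP+ embryo libraries F12, G11, G12 and H11 and none in the GFP+ embryo libraries. H11 thus overlapped the GFP+ group, and G12, lowest for Rdh10 and Cyp26a1, was highest here. The exact two-sided permutation p was 0.0476, and the RFP+ mean was 2.31-fold above the floor. In spheroids it was read in 17 of 37 GFP+ and 15 of 46 RFP+ libraries, with medians of 0 in both and maxima of 9.88 and 8.38 CPM (permutation p = 0.0990). At these depths a difference in the spheroids was not detectable. A further family member outside the list, Cyp26c1, was at 0 in all GFP+ embryo libraries, had a mean of 15.7 ± 9.33 CPM (SD, n = 4) in RFP+ embryo cells, and stayed at means of 0.445 and 0.581 CPM in GFP+ and RFP+ spheroid cells.

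Of the 3 receptors, Rarb (chr14:16430839-16819156, minus strand) was the one called between the spheroid populations. GFP+ embryo libraries A12 to E12 had 0, 0, 63.1, 70.6 and 0 CPM, and RFP+ embryo libraries F12, G11, G12 and H11 had 45.2, 29.4, 12.0 and 37.8 CPM. The 2 GFP+ libraries with reads, C12 and D12, were above all 4 RFP+ libraries, and they were also the 2 with Dhrs3. The embryo fold change was 0.24 on the log2 scale with a 95% interval of −4.05 to 4.54 (edgeR adjusted p = 0.989). In spheroids Rarb ranged from 0 to 10.8 CPM with a median of 0.663 in GFP+ libraries and from 0.709 to 43.8 with a median of 11.9 in RFP+ libraries. It was higher in RFP+ spheroid cells (log2 fold change 2.43, SE 0.32, edgeR adjusted p = 4.82e-11) and in 8 of 8 plate rows, by 1.21 to 3.54.

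Rara (chr11:98927818-98974942, plus strand) and Rarg (chr15:102234938-102257517, minus strand) were low everywhere. In GFP+ embryo cells each was read in 1 of 5 libraries, Rara in A12 (7.15 CPM) and Rarg in D12 (5.73 CPM). RFP+ embryo libraries F12, G11, G12 and H11 had 5.84, 3.41, 4.81 and 12.2 CPM of Rara and 2.92, 0, 17.6 and 1.35 CPM of Rarg. The Rara values of the 4 RFP+ libraries bracketed that of A12, and Rarg in RFP+ embryo cells rested mainly on G12. Exact two-sided permutation tests gave p = 0.0397 for Rara and 0.246 for Rarg. In spheroids, Rara had means of 4.48 ± 2.45 (SD, n = 37) and 4.56 ± 2.86 CPM (SD, n = 46) in GFP+ and RFP+ cells (permutation p = 0.826), and Rarg had 7.42 ± 4.63 and 6.88 ± 2.85 CPM. The Rarg difference was −0.09 on the log2 scale with a 95% interval of −0.45 to 0.26 (edgeR adjusted p = 0.645).

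The cytoplasmic binding proteins were the members called in the embryo. Crabp1 (chr9:54764748-54773110, plus strand) had 195, 36.4, 16.8, 59.1 and 0 CPM in GFP+ embryo libraries A12 to E12 and 651, 735, 744 and 482 CPM in RFP+ embryo libraries F12, G11, G12 and H11. The lowest RFP+ library was above the highest GFP+ library, and A12 stood well above the rest of the GFP+ group. Crabp1 was 10.4-fold higher in RFP+ embryo cells (log2 fold change 3.38, SE 0.91, edgeR adjusted p = 0.0369). Without A12 the log2 fold change was 4.45 (adjusted p = 0.0112). Crabp2 (chr3:87948666-87953376, plus strand) had 245, 167, 356, 100.1 and 79.8 CPM in GFP+ and 746, 852, 953 and 394 CPM in RFP+ embryo libraries in the same order. Here too the groups did not overlap, though H11 and C12 were close, and Crabp2 was 3.91-fold higher in RFP+ embryo cells (log2 fold change 1.97, SE 0.42, edgeR adjusted p = 0.0114).

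In the spheroids the same 2 genes barely separated the populations. Crabp1 ranged from 139 to 961 CPM (median 574) in GFP+ and from 263 to 738 CPM (median 468) in RFP+ libraries, and Crabp2 from 66.6 to 433 (median 163) and from 74.9 to 501 CPM (median 197). Crabp1 was slightly lower in RFP+ spheroid cells (log2 fold change −0.23, SE 0.10, edgeR adjusted p = 0.0372), a shift seen in 5 of 8 plate rows and for which the permutation test of the mean log2(CPM + 1) gave p = 0.292. Crabp2 did not pass (log2 fold change 0.20, 95% interval −0.04 to 0.43, edgeR adjusted p = 0.126). It passed once the near-identical wells were summed (0.24, adjusted p = 0.0674).

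**Figure D3:**
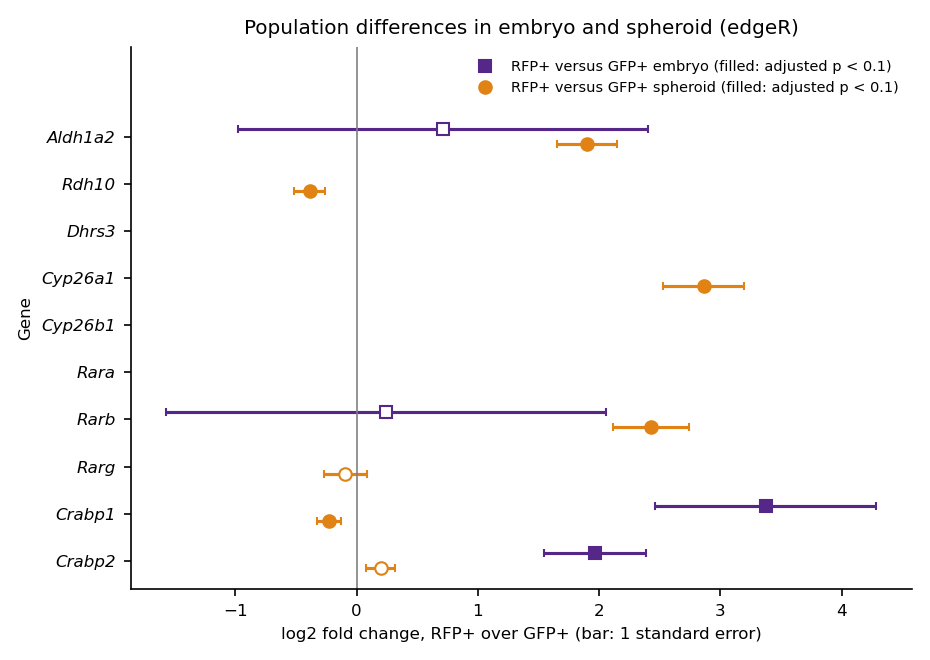
log2 fold change of RFP+ over GFP+ cells from edgeR, with bars of 1 standard error, for the genes that passed the filter on low counts in the embryo (squares, 4 of 10) and the spheroids (circles, 7 of 10), filled where the adjusted p was under 0.1. Rows without a symbol did not pass the filter. The 3 spheroid values above 1.5 are Aldh1a2, Cyp26a1 and Rarb, while Crabp1 and Crabp2 stand above 0 in the embryo and near 0 in the spheroids.

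Counted over the list, 4 of 10 members passed the filter on low counts in the embryo comparison, and 2 of them were called, both higher in RFP+ cells, where 10.1% of the 8503 genes tested were called in either direction and 6.21% were higher and 3.88% lower in RFP+ cells at an adjusted p under 0.1. DESeq2, which applies another filter, called Rdh10 (adjusted p = 3.12e-05) and Cyp26a1 (adjusted p = 0.00555) as well, and so did edgeR once the lowest RFP+ library, G12, was left out (adjusted p = 0.0290 and 0.0127). Both genes had no GFP+ read and entered these fits only through their RFP+ reads. Leaving out G12 also removed their lowest RFP+ values, so these calls are no separate support for a difference. With 4 members tested, the medians were 1.34 on the log2 scale for them and 0.09 for all genes tested. All RFP+ embryo libraries were above all GFP+ embryo libraries for 4 of 10 members (Rdh10, Cyp26a1, Crabp1 and Crabp2), against 11.7% of the 15111 genes with a read in the embryo. Absence in all GFP+ libraries with reads in all RFP+ libraries, as for Rdh10 and Cyp26a1, was found for 605 of them (4%), in the group with fewer genes detected. In the spheroid comparison, 7 of 10 members passed the filter and 5 were called, 3 higher and 2 lower in RFP+ cells. With 37 and 46 wells, 78% of the 9990 genes tested were called there, 38.4% higher and 39.6% lower, so the count of members called was no higher than that of genes at large. The medians were 0.20 for the 7 members and −0.01 for all genes. In all, 40 permutation tests of the members were made, 10 in each of 4 comparisons, and those printed are unadjusted.

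The question of whether the population difference itself changed between embryo and spheroid was tested for the 4 members measured in both fits. Crabp2 differed more between the embryo populations than between the spheroid ones, by 1.77 on the log2 scale (SE 0.44, adjusted p = 0.0944, from edgeR estimates with 7 degrees of freedom), among 5.28% of 8195 genes called. The larger difference of Crabp1, 3.60 (SE 0.92), had an adjusted p of 0.104. For Aldh1a2 (−1.19, SE 1.71, adjusted p = 0.920) and Rarb (−2.18, SE 1.84, adjusted p = 0.814), which passed in the spheroids and not in the embryo, the difference between sources was not shown. The Crabp2 call did not hold under most alternatives, for example with DESeq2 (1.65, adjusted p = 0.338). Rdh10 and Cyp26a1 did not pass the filter in the embryo and were not tested in this main setting. With no filter on low counts, edgeR estimates gave 8.40 for Rdh10 (SE 2.15, adjusted p = 0.151). The value for Cyp26a1 was 3.63 (SE 1.95, adjusted p = 0.334), so neither passed.

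Cells of the same reporter were then compared between spheroid and embryo. Among GFP+ cells, Rdh10 went from 0 in all 5 embryo libraries to reads in all 37 spheroid libraries. The spheroid mean of 53.6 ± 24.5 CPM (SD, n = 37) was 20.5-fold above the floor, which does not bound the embryo level. Levels without overlap and higher in the spheroid were found for 7.5% of the 21086 genes with a read. Cyp26a1 had a mean 1.40-fold above the floor, but only 21 of 37 spheroid libraries held a read, the median of 1.14 CPM was under the floor, and the permutation p was 0.0678. Of the 9 members tested, 5 were higher (Rdh10, Cyp26a1, Rara, Rarg and Crabp1) and 2 lower (Dhrs3 and Rarb) in the GFP+ spheroid cells, against 68.4% of 11953 genes called, 48.1% higher and 20.2% lower. Rdh10 and Cyp26a1 had no GFP+ embryo read, and Rara and Rarg were read in 1 of 5 of those libraries. These genes passed the filter only through the spheroid libraries, so the count of higher members gives no support for a rise of the list. The median of all genes was itself shifted by 0.65 towards the spheroid (0.37 with DESeq2), and relative to it Crabp1 was higher by 2.62, Rarg by 1.77 and Rara by 1.17, and Dhrs3 and Rarb were at −2.07 and −4.08 on the log2 scale.

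The individual GFP+ embryo libraries weighed heavily here. Crabp1 (log2 fold change 3.27, SE 0.49, edgeR adjusted p = 1.56e-07) reached 4.20 without A12. Rarb (−3.43, SE 0.79, adjusted p = 0.000206) was −2.53 without D12, and its permutation p was 0.0771, with no read in 3 of 5 embryo libraries. Rarg (2.42, SE 0.72, adjusted p = 0.00328) was 6.81 without D12, the only GFP+ embryo library with a Rarg read. Rara (1.82, SE 0.77, adjusted p = 0.0365) was 6.09 without A12, its only source of reads, and lost its call without B12, D12 or E12 (adjusted p of 0.120, 0.116 and 0.103). Dhrs3 (−1.42, SE 0.69, adjusted p = 0.0667) lost its call without C12 (adjusted p = 0.218) or D12 (−0.37, adjusted p = 0.718). On the mean of log2(CPM + 1) its direction turned, with 2.61 in spheroid and 2.30 in embryo cells (permutation p = 0.678). Aldh1a2 (−0.78, adjusted p = 0.366) and Crabp2 (0.08, adjusted p = 0.804) did not pass.

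Among RFP+ cells, of the 8 members tested, 2 were higher (Cyp26a1 and Rdh10) and 3 lower (Crabp1, Crabp2 and Rarb) in spheroid cells, against 42.6% of 11147 genes called, 22.5% higher and 20.1% lower. Cyp26a1 had a mean of 28.1 ± 17.6 CPM (SD, n = 46) in spheroid and 7.7 in embryo cells (log2 fold change 1.80, SE 0.57, edgeR adjusted p = 0.00962). Crabp2 fell from a mean of 736 ± 243 (SD, n = 4) in the embryo to 211 ± 87.6 CPM (SD, n = 46) in the spheroid (−1.86, SE 0.22, adjusted p = 3.22e-10). Rarb fell from 31.1 ± 14.3 to 12.0 ± 7.52 CPM (−1.40, SE 0.39, adjusted p = 0.00335), and Crabp1 from 653 ± 121 to 482 ± 112 CPM (−0.48, SE 0.15, adjusted p = 0.00899). Aldh1a2 had means of 63.3 ± 37.5 and 80.7 ± 51.4 CPM, and its difference of 0.28 (95% interval −0.61 to 1.16) did not pass. The call for Rdh10 (0.83, SE 0.31, adjusted p = 0.0285) was lost without library G12 (0.53, adjusted p = 0.212), and Rarg (0.30) passed only without it (2.22, adjusted p = 0.00390). The members not tested by edgeR were lower in spheroid cells on the mean of log2(CPM + 1), Cyp26b1 by a difference of −1.81 (permutation p = 0.00307) and Dhrs3 by −1.11 (permutation p = 0.0318). Both comparisons of sources share their libraries with the comparisons of populations and are not independent of them, and embryo and spheroid wells also differed in plate columns, so source and column cannot be told apart.

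Levels were ordered between genes after division by the length of the merged exons (CPM per kb). In RFP+ spheroid cells the order was Crabp1 (601), Crabp2 (159), Aldh1a2 (35.7), Cyp26a1 (14.2), Rdh10 (9.89), Rarb (2.28), Rarg (1.62), Rara (1.05), Dhrs3 (0.418) and Cyp26b1 (0.150 CPM per kb). Crabp1 was above Crabp2 in 46 of 46 libraries, Crabp2 above Aldh1a2 in 44 and Rdh10 above Rarb in 45. The other neighbours differed on average by less than the SD of their difference, such as Cyp26a1 and Rdh10, with Cyp26a1 above in 28 of 46. In GFP+ spheroid cells the binding proteins were followed by Rdh10 (12.9) and then Aldh1a2 (9.29 CPM per kb), with Rdh10 above Aldh1a2 in 29 of 37 libraries, a difference smaller than its SD, as were all those further down. In RFP+ embryo cells Crabp1 (814), Crabp2 (557) and Aldh1a2 (27.9 CPM per kb) again led, in that order in 4 of 4 libraries. Rarb (5.91) and Rdh10 (5.37) followed without differing beyond their spread, as was true of Rara, Dhrs3, Rarg and Cyp26b1 (1.5 to 1.1 CPM per kb) at the lower end. In GFP+ embryo cells Crabp2 (144) was first and Crabp1 (76.6 CPM per kb) second by their means. Crabp2 was above Crabp1 in 4 of 5 libraries, among them E12, which held no Crabp1 read. None of the neighbours in the order differed by more than its SD.

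**Figure D4:**
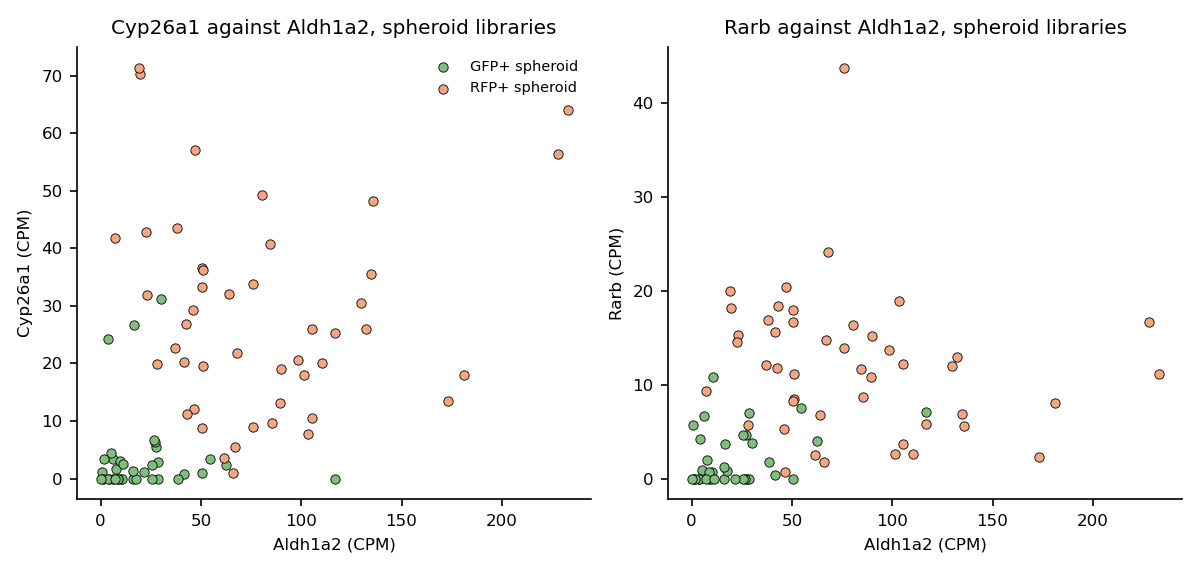
CPM of Cyp26a1 (left) and of Rarb (right) against CPM of Aldh1a2 in each spheroid library, GFP+ (n = 37) and RFP+ (n = 46). RFP+ libraries lie above and to the right of most GFP+ libraries, and within either population the points show no steep trend.

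The 3 genes that were higher in RFP+ spheroid cells were only weakly correlated from well to well. Across the 46 RFP+ spheroid wells, Aldh1a2 and Cyp26a1 had a Pearson r of 0.04 and a Spearman rho of −0.15, and Aldh1a2 and Rarb had −0.17 and −0.28. Cyp26a1 and Rarb, the pair with the repeat shown above, had 0.33 and 0.36 (r of 0.27 without the 2 wells farthest from the median), which is weak. With the near-identical wells summed (n = 39), r was 0.26 and rho 0.27. In the 37 GFP+ wells the same pair had 0.05 and 0.04. The closest pair of members in GFP+ spheroid wells was Rdh10 and Crabp1 (r of 0.65, rho of 0.66, and 0.64 without the 2 farthest wells), against 0.23 and 0.24 in RFP+ wells. These values describe wells that share a plate, and many low counts enter them.

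By the same measure over all 9805 genes with a mean of at least 5 CPM in the 46 RFP+ spheroid wells, the genes most like each member had a rho of at most 0.65. These are the highest of many values, and the level that chance alone would give was not computed. For Aldh1a2 they were Prpf6 (0.64), Mrpl53 (0.62) and Arf6 (0.59), and for Rdh10 Anp32e, Smc1a and Dse (0.57 each). For Cyp26a1 they were Arrb1 (0.58), Alg14 (0.55) and Alkbh1 (0.54), and for Rarb Msmo1 (0.60), Hnrnpa1 (0.54) and Sfxn1 (0.53). For Rarg they were Tex261 (0.65), Zswim3 (0.55) and Limk2 (0.52). For Crabp1 they were Bcl7b (0.62), Edn3 (0.57) and Plxna4 (0.56), and for Crabp2 Rictor (0.61), Tk1 (0.58) and Mob1b (0.58). Dhrs3, Cyp26b1 and Rara were below that level. Some of these lists changed when the near-identical wells were summed. For Aldh1a2 the list became Timm9 (0.60), Aven (0.59) and Prpf6 (0.58). For Cyp26a1 all 3 genes were replaced, by Myl7, Sf3b2 and Thg1l (0.53 each).

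**Figure D5:**
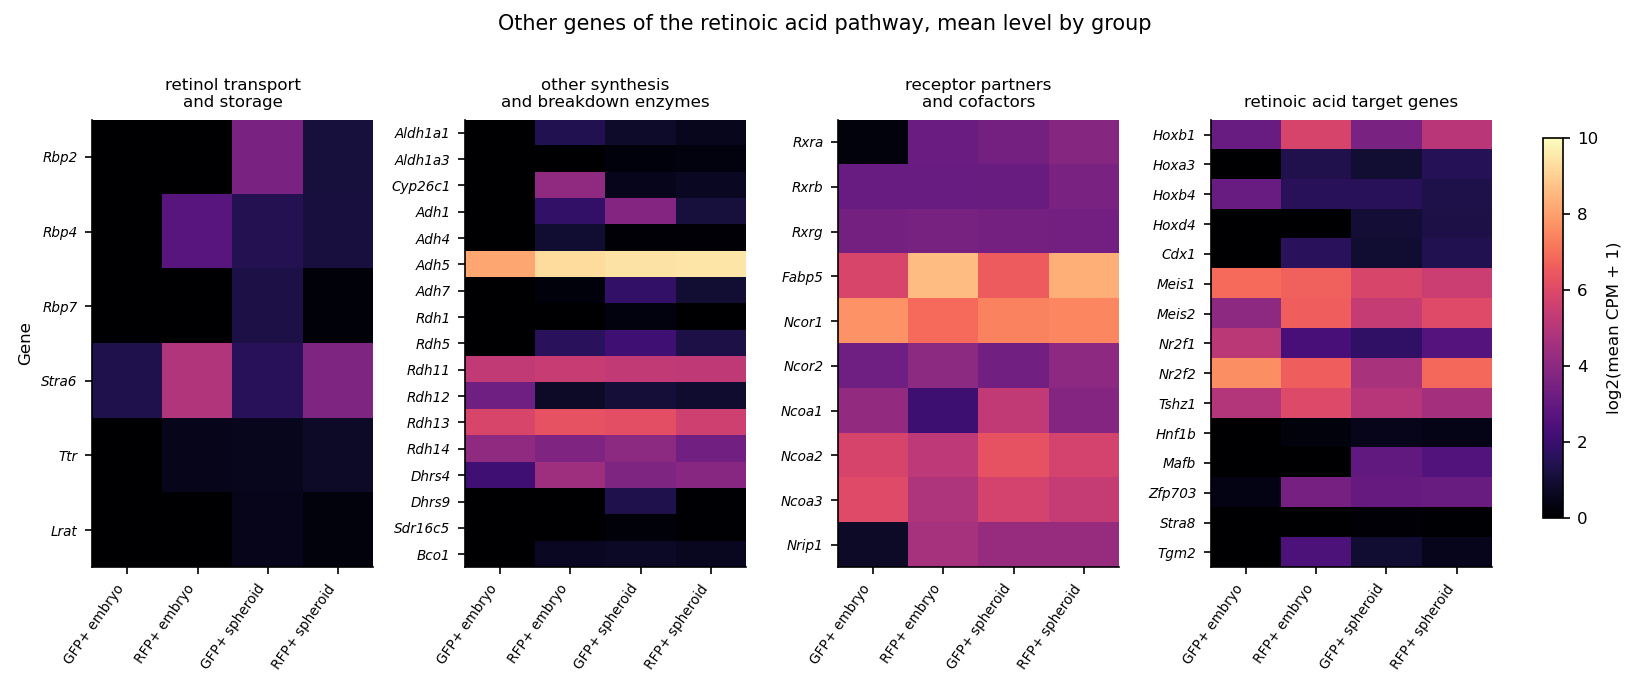
Mean level of genes of the 4 wider retinoic acid lists (panels) in the 4 groups (columns), coloured by log2(mean CPM + 1). Stra6 and Fabp5 are brighter in both RFP+ groups than in the GFP+ group of the same source.

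The wider pathway was read from 4 further lists. Among the genes of retinol transport and storage, Stra6, the membrane receptor that takes up retinol, averaged 1.98 ± 3.18 CPM (SD, n = 37) in the GFP+ spheroid libraries against 11.4 ± 5.69 CPM (SD, n = 46) in the RFP+ ones and was higher in the latter (log2 fold change 2.58, SE 0.31, edgeR adjusted p = 4.65e-12). Stra6 did not pass the filter in the embryo, where the GFP+ mean was 1.55 ± 2.43 CPM (SD, n = 5) and the RFP+ mean 29.0 ± 18.9 CPM (SD, n = 4). Of 17 other enzymes of synthesis and breakdown, none of 5 tested passed in the embryo, where 10.1% of all genes tested were called. In the spheroid 2 of 5 were lower in RFP+ cells and none higher, where 39.6% of all genes were lower and 38.4% higher. The count of lower enzymes was thus near that of genes at large. The 2 were the retinol dehydrogenases Rdh14 (−0.75, SE 0.16, adjusted p = 1.13e-05) and Rdh13 (−0.59, SE 0.08, adjusted p = 5.22e-10).

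Among 10 receptor partners and cofactors, 7 were tested in the embryo and 2 were higher in RFP+ cells, the corepressor Nrip1 (log2 fold change 4.95, SE 1.53, edgeR adjusted p = 0.0725) and the fatty-acid-binding protein Fabp5, which also carries retinoic acid (2.79, SE 0.90, adjusted p = 0.0865). Of all genes tested there, 6.21% were higher in RFP+ cells. The Nrip1 call was lost without any 1 of the 4 RFP+ libraries (adjusted p of 0.114 to 0.176), and the Fabp5 call without any library other than A12 or E12 (0.131 to 0.230). In spheroids all 10 were tested, 4 were higher in RFP+ cells, among them Fabp5 (1.79, SE 0.07, adjusted p = 9.42e-44), and 3 were lower, among them the coactivators Ncoa1 (−1.55, SE 0.13, adjusted p = 1.41e-19) and Ncoa2 (−0.56, SE 0.08, adjusted p = 3.74e-09). Of 16 target genes, 8 were tested in spheroids and 4 were higher in RFP+ cells, with Nr2f2, an orphan nuclear receptor of atrial and venous identity, the furthest (2.17, SE 0.11, adjusted p = 6.26e-33), and 2 were lower, against 38.4% of all genes tested higher and 39.6% lower. In the embryo Nr2f2 had a log2 fold change of the opposite sign that did not pass (−1.02, edgeR adjusted p = 0.384), and the difference between sources was −3.19 (SE 0.53, edgeR adjusted p = 0.0345). The medians of the tested genes were 0.46 for the other enzymes and 0.03 for the cofactors in the embryo, where all genes had 0.09, and −0.11, 0.02 and 0.37 for enzymes, cofactors and targets in spheroids, where all genes had −0.01.

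Between sources, the enzymes, cofactors and targets had 4, 4 and 4 genes higher and 0, 0 and 3 lower in GFP+ spheroid cells, of 7, 10 and 9 tested, where 48.1% of all genes were higher and 20.2% lower. In RFP+ spheroid cells 0, 5 and 1 were higher and 1, 1 and 5 lower, of 5, 10 and 10 tested, where 22.5% of all genes were higher and 20.1% lower. The summed level of the 16 target genes was 218 to 461 CPM in RFP+ spheroid and 459 to 563 CPM in RFP+ embryo libraries.

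Markers of other cells were compared between the same groups, and some of them differed. Of all genes tested, 6.21% were higher and 3.88% lower in RFP+ embryo cells, and 38.4% were higher and 39.6% lower in RFP+ spheroid cells. The 7 paraxial mesoderm markers summed to 25.9 to 86.6 CPM in RFP+ embryo libraries and were all at 0 in GFP+ embryo libraries. In spheroids they summed to 77.0 to 185 CPM in RFP+ and 3.96 to 52.3 CPM in GFP+ libraries without overlap, 4 of 4 tested were higher in RFP+ cells, and Meox1 had means of 58.2 and 7.24 CPM. The 7 endoderm markers summed to 8.78 to 646 CPM in RFP+ embryo libraries (Cldn6 6.08 to 466 CPM) and to 0 to 28.1 CPM in GFP+ embryo libraries with 6 of 7 at 0. These sums overlap, and none of the 7 markers was tested in the embryo. In spheroids they summed to 182 to 527 CPM in GFP+ and 20.4 to 326 CPM in RFP+ libraries, which overlap, and of 3 tested 2 were lower and 1 higher in RFP+ cells. The 6 pluripotency markers summed to 34.9 to 1588 CPM in GFP+ and 4.25 to 541 CPM in RFP+ spheroid libraries, and 4 of 5 tested were lower in RFP+ cells. Epicardial and proepicardial cells are known to express Aldh1a2. Their 5 markers summed to 0 to 386 CPM in GFP+ and 42.5 to 173 CPM in RFP+ embryo libraries. None of 2 tested there was called, among them Tbx18 (log2 fold change −2.26). In spheroids the 5 markers summed to 0 to 22.8 CPM in GFP+ and 1.01 to 41.6 CPM in RFP+ libraries. Only Tbx18 was tested there, and it was higher in RFP+ cells (3.04), opposite in sign to the embryo. The other 4 markers were not tested in spheroids.

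The remaining marker lists stand against the same shares of all genes tested, 6.21% higher and 3.88% lower in RFP+ embryo cells and 38.4% and 39.6% in RFP+ spheroid cells. The 7 neural markers summed to 0 to 9.26 CPM in GFP+ and 21.6 to 81.8 CPM in RFP+ embryo libraries, with 5 of 7 at 0 in the former and none of 1 tested called, and to 41.1 to 164 and 36.9 to 125 CPM in the spheroids with 1 of 3 tested higher and 1 lower in RFP+ cells. The 5 neural crest markers summed to 0 to 42.8 CPM in GFP+ and 8.03 to 12.97 CPM in RFP+ embryo libraries and to at most 20.2 CPM in spheroids, with none tested in either comparison and 4 of 5 at 0 in GFP+ embryo libraries. The 7 endothelial and blood markers summed to 0 to 101 CPM in GFP+ and 16.8 to 797 CPM in RFP+ embryo libraries with none of 1 tested called, and to at most 59.0 CPM in spheroids with none tested. The 6 pluripotency markers summed to 0 to 503 CPM in GFP+ and 0 to 78.1 CPM in RFP+ embryo libraries, with Pou5f1 at 0 in both and none of 1 tested called. Of the 7 SHF and pharyngeal markers (69.99 to 326 CPM in GFP+ and 258 to 324 CPM in RFP+ embryo libraries), 2 of 6 tested were higher in RFP+ cells in the embryo, and 3 of 5 were higher and 1 lower in spheroids. Of the FHF and cardiomyocyte markers, 5 of 5 tested were lower in RFP+ embryo cells (586 to 1334 CPM in sum) and 1 of 2 in RFP+ spheroid cells (5.34 to 83.7 CPM). The part of these cells in the differences of the retinoic acid genes was not tested.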

How the data were processed

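RNA-seq libraries of 10 sorted mouse cells each were analysed from 1 table of counts per gene symbol. Per the labels, the authors amplified cDNA with 19 PCR cycles and no molecular identifiers, trimmed reads (Trimmomatic 0.36), aligned them to mm10 (HISAT2 2.0.4) and assigned them with featureCounts 1.5.2. The annotation and strand setting are not given in the sources used here, so antisense reads cannot be told apart. The deposited counts were not normalized. CPM was computed from each library's total. Reads are not independent molecules, so floors of 3 counts per library cover counting error only.

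Comparisons used edgeR 4.0.16 (R 4.3.3): filterByExpr defaults, TMM factors, the quasi-likelihood test on the libraries of the groups compared, and Benjamini-Hochberg adjustment over all genes tested with a threshold of 0.1. DESeq2 1.42.0 was an alternative. Intervals of log2 fold changes used residual degrees of freedom (7 in the embryo). The difference between embryo and spheroid effects was tested from both estimates with 7 degrees of freedom. Members were also tested by permutation of log2(CPM + 1), exactly within the embryo and with 100000 resamples otherwise. Scripts were tested on simulated data. Positions are from GENCODE (GRCm38) and sequences from RefSeq (GRCm38.p6), which held windows for 8 of 10 members. Wells carried no shared replicate numbers. Genes named outside the list were the called pathway genes with the largest fold changes, up to 4 per direction, and the 3 nearest neighbours by Spearman rho. Of the former, 2 are not reported here. The members and lists were chosen with earlier results of these data known. Alternatives for the difference between sources, and naming Cyp26c1, Meox1, Cldn6, Tbx18, Tnnt2, Timm9, Aven, Myl7, Sf3b2 and Thg1l, were chosen after seeing the data.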

Additional observations from a re-analysis of the deposited data

Results flagged for a closer look

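Within the embryo groups, 3 values of the receptors stood far from the rest of their group by Dixon's criterion. Rara had 7.15 CPM in GFP+ embryo library A12 and Rarg had 5.73 CPM in GFP+ embryo library D12, each with no read in the other 4 libraries, which meets the criterion for any gene read in 1 library. Rarg had 17.6 CPM in RFP+ embryo library G12, where the other 3 had 0 to 2.92 CPM. Chance alone meets the criterion in about 1 in 20 groups of normally distributed values. Low counts with values of 0, as here, need not follow that distribution, so the rate may differ. The RFP+ over GFP+ difference of Crabp2 was larger in the embryo than in the spheroids by 1.77 on the log2 scale (edgeR estimates, adjusted p = 0.0944). For Nr2f2, a nuclear receptor gene of the wider pathway list, the embryo difference minus the spheroid one was −3.19 (edgeR estimates, adjusted p = 0.0345).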

How the results depend on the processing

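Of 291 recomputed values of the members, 271 kept their direction and their side of the threshold of 0.1, 7 lost a call, 2 gained one and 11 changed sign, none of these a call. For the pathway genes, 91 of 106 kept both and 15 lost the call. In the embryo, 858 genes were called, and 1936 with DESeq2 or 2000 with no filter on low counts, while members called went from 2 to 4 and 5. Leaving out 1 library gave 613 to 1044 genes and 2 to 4 members, with 4 without G12. In spheroids, no filter gave 13056 calls in place of 7789. Between sources, leaving out 1 library gave 8559 to 8699 genes and 6 to 8 members in GFP+ cells, and 4076 to 4426 genes and 5 to 6 members in RFP+ cells. The 433 genes whose population difference changed with source became 119 with no filter, 249 at a threshold of 0.05, and 71 to 557 without 1 library (71 without G11, 111 without H11 and 219 without F12). The Crabp2 difference kept its sign (1.57 to 2.07 without 1 library) but lost its call under most settings, and that of Crabp1 passed with total counts (adjusted p = 0.0991) and without A12 (0.0551) or E12 (0.0660). Sign changes, all of uncalled values, were Crabp2 in GFP+ spheroid against embryo cells (−0.13 with DESeq2, −0.13 with RLE factors, −0.053 with total counts, −0.13 to 0.33 without 1 library), Aldh1a2 there (−1.16 to 0.11), Rarb between embryo populations (−0.082 to 1.08) and Rarg in RFP+ spheroid against embryo cells (−0.13 to 2.22). The cause was not tested. Wells carry no replicate number shared between groups. Spheroid wells of both populations share plate rows, and a fit with plate row as a factor changed the call of none of the 7 members tested. With 712732 counts in the smallest embryo library, members under about 4 CPM were at the floor.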

Other observations

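Among GFP+ spheroid wells, Crabp1 was high where Isl1, a pan-cardiac progenitor gene, was high (Pearson r of 0.64, Spearman rho of 0.77, and r of 0.63 without the 2 farthest wells, n = 37) and low where the epithelial gene Epcam was high (−0.63, −0.63 and −0.60). In RFP+ spheroid wells the same pairs gave 0.01 and −0.07 for Isl1 and −0.15 and −0.15 for Epcam (n = 46). Rdh10 went with Meis1 in GFP+ wells (0.58, 0.64 and 0.70) and less so in RFP+ wells (0.30 and 0.20). Aldh1a2 went with Hoxb1 in RFP+ wells (0.59, 0.56 and 0.45) and in GFP+ wells (0.51, 0.42 and 0.41). These pairs were picked after their values were seen, from all pairs of members with list genes. The wells share a plate, no test of the differences between populations was made, and the values are descriptions.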
